A study of Homo sapiens with 8 samples.

Results

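Genes for enzymes of the tricarboxylic acid cycle, and for the enzymes that fill and drain it, were followed in 8 whole-transcript arrays of 2 human lymphoma cell lines. The set was named as 9 genes, with earlier results of these data known. Of these, 8 had a probe set (the group of probes that reports 1 gene) paired with their symbol alone: CS, IDH2, IDH3A, OGDH, SUCLA2, MDH2, PC and PCK2. FH, the gene of fumarase, was not analysed here. Each of the 8 had 1 such probe set, out of 19181 probe sets with 1 symbol in the table. KMH2, an established Hodgkin lymphoma line, was profiled untreated (control, 3 arrays) and after 24 h of glucosamine, an amino sugar that enters the hexosamine pathway (3 arrays). Ramos, an established Burkitt lymphoma line, was profiled on 2 arrays. Sample titles call both Ramos arrays control, whereas the design text places 1 of them after glucosamine, so Ramos is described by line alone. All cells were grown in RPMI medium with GlutaMAX, a stable glutamine dipeptide, and serum. The sources used here do not give the dose of glucosamine.

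The cycle burns acetyl-CoA to carbon dioxide in the mitochondrial matrix and hands the electrons to the respiratory chain. Its intermediates are also withdrawn for synthesis of lipids, aspartate and nucleotides, so dividing cells refill it (anaplerosis) from pyruvate, through pyruvate carboxylase, and from glutamine, through 2-oxoglutarate. PEP carboxykinase works the opposite way and takes oxaloacetate out (cataplerosis). In lymphoma cells in culture, glutamine is a well-known fuel of this route.

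The labels name both lines as lymphocytes, and their markers separated them. MS4A1, the B-cell antigen CD20, was at 3.70 in KMH2 control and 10.94 in Ramos, and TNFRSF8, the Hodgkin antigen CD30, at 8.74 and 5.86 (mean log2 signal). After glucosamine 4 of 5 Hodgkin markers passed the test as lower, with array means of 8.57 to 8.66 in control and 8.05 to 8.09 after it (6.64 to 6.68 in Ramos). Over all probe sets, 13.9% passed as lower. Of 6 B-cell markers 2 were lower after glucosamine, with array means of 5.62 to 5.68 in control and 5.43 to 5.57 after it (10.58 to 10.66 in Ramos). Among 11 measured markers of T, myeloid, fibroblast and epithelial cells, 1 passed the test after glucosamine (CD14, lower). The T-cell gene CD3D stood at 8.27, 8.10 and 8.20 in KMH2 control, whereas the T-cell genes CD3E and CD2 had means of 4.17 and 4.65 there. The mean log2 signal of these 11 on an array ran from 5.34 to 5.40 in KMH2 control, 5.14 to 5.29 after glucosamine and 5.01 to 5.07 in Ramos, and the part of any of these markers in the results below was not tested. On a log2 scale no marker has a true 0. Deviations from the group mean on the replicate 1 arrays of KMH2 ran against those on arrays of other numbers (correlations -0.37 to -0.27 over probe sets). Deviations sum to 0 within a group, so these values follow in part from the positive correlation between the replicate 1 arrays (0.46). Calls that ended without both replicate 1 arrays are named beside the result.

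Promoter windows, from the RefSeq table of GRCh38.p14 and cut at 250 bases before a start site, were found for 7 of the 8 measured genes, PC with 3 starts, which makes 9 windows. No entry was used for OGDH. Shown here are CS, which rose after glucosamine, PCK2, which fell, and SUCLA2, which was higher in Ramos, so that genes with different behaviour can be read side by side. Capitals mark a GC box (GGGCGG, the letters bound by SP1 family factors) or a CCAAT box, on either strand, and each sequence runs 5′ to 3′ in the direction of its gene.
CS (chr12:56300331-56300580, minus strand): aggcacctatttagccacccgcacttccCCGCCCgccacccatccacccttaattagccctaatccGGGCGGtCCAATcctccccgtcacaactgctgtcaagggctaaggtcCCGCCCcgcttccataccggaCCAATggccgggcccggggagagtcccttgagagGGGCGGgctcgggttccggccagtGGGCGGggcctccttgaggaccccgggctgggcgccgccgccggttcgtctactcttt
PCK2 (chr14:24094061-24094170, plus strand, the part outside the gene): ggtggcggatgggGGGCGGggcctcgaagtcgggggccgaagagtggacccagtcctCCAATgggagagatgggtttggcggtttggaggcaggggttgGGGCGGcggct
SUCLA2 (chr13:48001274-48001523, minus strand): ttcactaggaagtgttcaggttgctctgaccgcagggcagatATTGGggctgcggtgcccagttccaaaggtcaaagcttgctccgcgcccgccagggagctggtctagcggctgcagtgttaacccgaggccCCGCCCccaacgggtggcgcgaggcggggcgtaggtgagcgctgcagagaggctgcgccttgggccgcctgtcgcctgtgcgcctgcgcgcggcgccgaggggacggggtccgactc

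The 4 motifs listed at the outset had 0 matches in the 9 windows on either strand. They were TGATGNAAN, the composite site of ATF4 and C/EBP factors (in 3.13% of all 35116 windows of the table), the palindromic NRF1 consensus (1.03%), TCAAGGTCA of ERR alpha (0.319%) and the E-box CACGTG (6.34%). A further 3 motifs were picked after that result was seen. The GC box was in 6 of the 9 windows (42.6% of all windows), the CCAAT box in 5 (32.0%), and CCGGAAG, the core read by ETS and GABP factors, in 1, that of MDH2, which held it at 2 places (8.52%). CS carried 5 GC boxes and 2 CCAAT boxes, none overlapping, and the whole PCK2 window carried 4 and 1. GC content was 67.6% in the CS window, 71.6% in that of PCK2 and 69.2% in that of SUCLA2, against a median of 58.0% over all windows. The IDH2 window lay inside the RefSeq span of the gene and had 48.4%. The PC windows with 50.4% and 56.4% also lay inside the span of their gene. These matches describe letters in a short window and were not tested for function.

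After glucosamine, 3 of the 8 genes changed in KMH2. CS, citrate synthase, rose 1.19-fold, PCK2, mitochondrial PEP carboxykinase, fell 1.23-fold, and IDH2, the NADP-dependent isocitrate dehydrogenase of mitochondria, fell 1.15-fold. The other 5 did not pass the test. A call here is a Benjamini-Hochberg adjusted p under 0.05 from limma's moderated test over all 19181 probe sets, and 25.8% of these were called (11.9% higher and 13.9% lower), so 3 of 8 is a share of the same order. The median size of the difference was 0.10 on the log2 scale for the 8 genes and 0.11 over all probe sets. In cultures measured in bulk, fewer cells with a transcript and less of it per cell cannot be told apart.

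CS condenses acetyl-CoA with oxaloacetate and so opens the cycle. Its log2 signal was 11.42, 11.40 and 11.38 in KMH2 control and 11.59, 11.69 and 11.67 after glucosamine. All glucosamine arrays lay above all control arrays. Groups did not overlap in 4 of the 8 enzymes (CS, MDH2, IDH2 and PCK2) and in 40.9% of all probe sets (20.3% higher and 20.6% lower). The difference was 0.25 ± 0.05 (SE, n = 3 per group, limma adjusted p = 0.00906), and it was positive in each same-numbered pair (0.17, 0.30 and 0.29). CS kept its call under all 15 alternatives run, with adjusted p from 0.000717 to 0.0400.

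**Figure D1:**
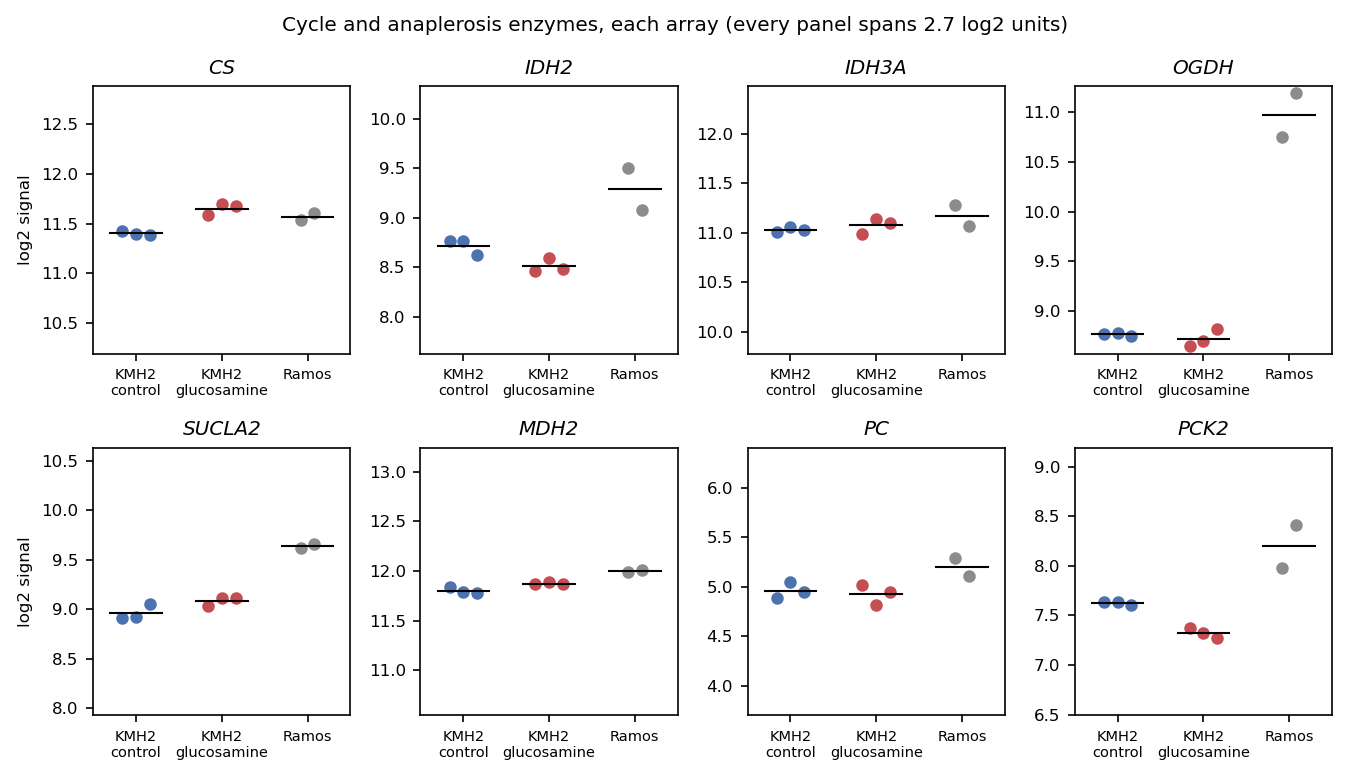
Log2 signal of the 8 measured enzymes on each array (points) and the group mean (line) in KMH2 control, KMH2 after glucosamine and Ramos. Each panel has its own axis of equal span, so heights are comparable within a panel. CS is higher and PCK2 lower on every glucosamine array than on every control array, and OGDH is highest on both Ramos arrays.

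Of the cycle dehydrogenases, IDH2 passed the test and IDH3A and OGDH did not. IDH2, which makes NADPH while turning isocitrate into 2-oxoglutarate, was at 8.77, 8.76 and 8.62 in control and 8.46, 8.59 and 8.48 after glucosamine. The groups did not overlap, although the lowest control and the highest glucosamine array were 8.62 and 8.59. The difference was -0.21 ± 0.06 (SE, limma adjusted p = 0.0477), close to the threshold. It no longer passed when control replicate 1 (adjusted p = 0.135) or 2 (0.155) was left out, without glucosamine replicate 1 (0.0934) or 3 (0.140), without both replicate 1 arrays (0.160), with quantile normalization (0.0735), with all probe sets of the table (0.0850) and with all 8 arrays in the fit (0.281), over a range of 0.0186 to 0.281.

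IDH3A, the catalytic subunit of the NAD-dependent isocitrate dehydrogenase, was at 11.00, 11.06 and 11.02 in control and 10.99, 11.14 and 11.10 after glucosamine. The glucosamine arrays spanned the control range, and the 95% confidence interval of the difference ran from -0.09 to 0.18. OGDH, the first subunit of the 2-oxoglutarate dehydrogenase complex, was at 8.76, 8.77 and 8.75 in control and 8.64, 8.70 and 8.81 after glucosamine. These also overlapped, with an interval from -0.18 to 0.09.

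The later steps gave small positive differences that did not pass. SUCLA2, the ADP-forming subunit of succinyl-CoA ligase, was at 8.91, 8.92 and 9.05 in control and 9.03, 9.11 and 9.11 after glucosamine. Control replicate 3 lay among the treated arrays, and the interval ran from -0.01 to 0.26. MDH2, the malate dehydrogenase of the matrix, was at 11.84, 11.79 and 11.78 in control and 11.87, 11.89 and 11.87 after glucosamine. Its groups did not overlap, but the difference of 0.07 ± 0.05 (SE) did not pass (limma adjusted p = 0.356).

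At oxaloacetate, PC fills the cycle and PCK2 drains it, and the difference between their changes was not tested. PC, pyruvate carboxylase, was at 4.88, 5.05 and 4.95 in control and 5.02, 4.82 and 4.95 after glucosamine, with an interval from -0.20 to 0.13. All of these lie under the array medians (5.62 to 5.68). Background of unknown size can shrink a difference, and its part here was not tested. PCK2 was at 7.63, 7.64 and 7.61 in control and 7.37, 7.33 and 7.27 after glucosamine. The groups were fully apart, and the same-numbered differences were -0.26, -0.31 and -0.33. The mean difference was -0.30 ± 0.05 (SE, limma adjusted p = 0.00353), and 18.3% of all probe sets had a larger one in either direction. PCK2 missed the threshold with all 8 arrays sharing the spread (adjusted p = 0.107), over a range of 0.000559 to 0.107.

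**Figure D2:**
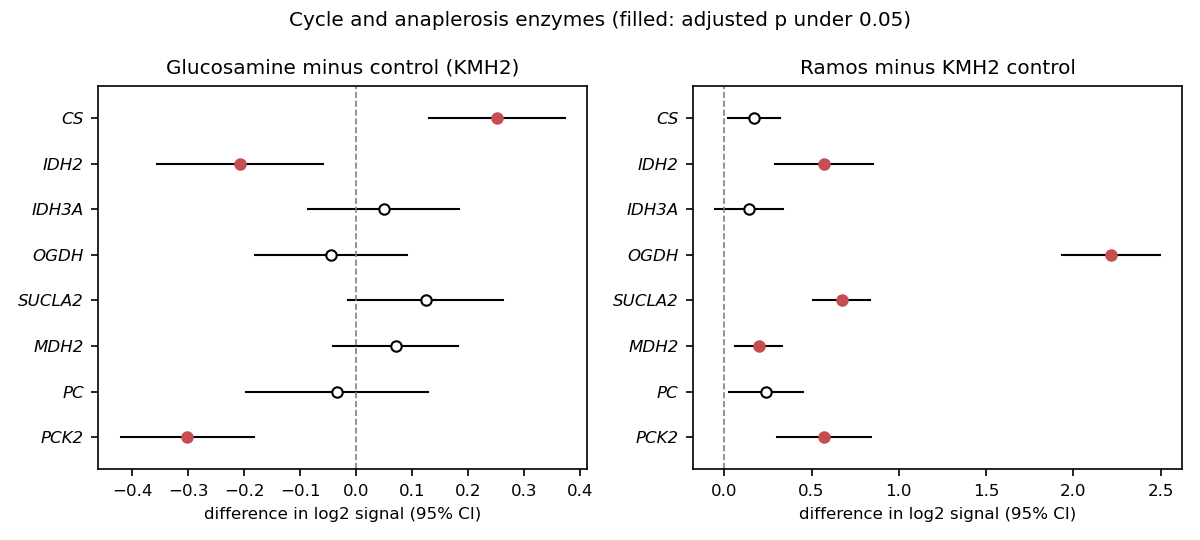
Difference in log2 signal of the 8 enzymes (point) with its unadjusted 95% confidence interval (line), for glucosamine minus control in KMH2 (left) and Ramos minus KMH2 control (right). Filled points passed the adjusted test. CS, IDH2 and PCK2 are filled on the left, at 0.25, -0.21 and -0.30, and OGDH stands out on the right at 2.21.

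PCK2 is a known target of ATF4, which switches on genes of amino acid supply under stress. Of 6 other ATF4 targets set beside it, 5 rose after glucosamine, beside 11.9% of all probe sets called higher. ASNS, asparagine synthetase, rose by 1.49 on the log2 scale, SESN2, a brake on mTORC1, by 1.32, the pseudokinase gene TRIB3 by 1.21, PSAT1 of serine synthesis by 1.15 and CTH of cysteine synthesis by 2.66. CHAC1, which degrades glutathione, was at -0.03 (limma adjusted p = 0.843). Its means of 5.30 in control and 5.27 after glucosamine lie under the array medians (5.62 to 5.68). The part of background in this value was not tested. PCK2 was the 1 gene of these 7 that fell. These targets were listed with their earlier results known, and the difference between PCK2 and each of them was not tested.

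**Figure D3:**
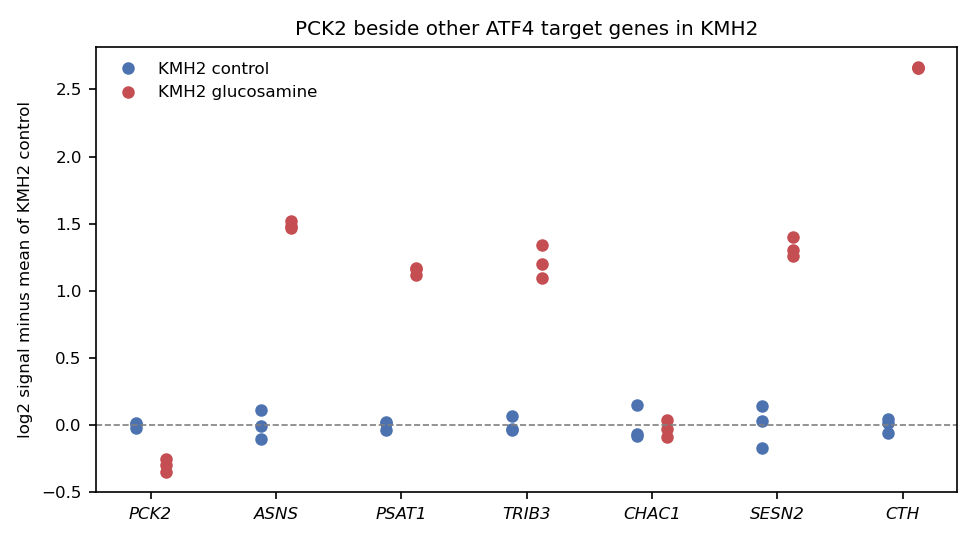
Log2 signal minus the mean of KMH2 control for PCK2 and 6 other ATF4 targets, each point 1 array of KMH2 control or KMH2 after glucosamine. All 3 glucosamine arrays lie below 0 for PCK2, and above 1 for ASNS, PSAT1, TRIB3, SESN2 and CTH.

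Several of these enzymes have a partner encoded by another gene, in the cytosol or with another nucleotide or tissue preference. IDH1, the cytosolic NADP-dependent isocitrate dehydrogenase, rose by 0.54 ± 0.07 (SE, limma adjusted p = 0.000891) while IDH2 fell. MDH1, the cytosolic malate dehydrogenase, fell by 0.30 (limma adjusted p = 0.0105), and SUCLG2, the GDP-forming counterpart of SUCLA2, fell by 0.47 (limma adjusted p = 0.00139), while a second SUCLG2 probe set, of lower signal, gave -0.19 (0.0820). The cytosolic enzyme PCK1 (4.92 in control) and OGDHL, a relative of OGDH (4.72), were under the array medians and did not pass. Within arrays, the log2 signal of the listed enzyme minus that of its partner changed by -0.74 for IDH2 over IDH1, 0.59 for SUCLA2 over SUCLG2 and 0.37 for MDH2 over MDH1. The same value was -0.36 for PCK2 over PCK1 and -0.15 for OGDH over OGDHL, partners under the array medians. All 5 changes were computed after the values were seen, and in each the control and glucosamine arrays did not overlap. An exact permutation test gave p = 0.1 for each pair, before and after adjustment. That is the smallest p this test could give here, so it could not pass at 0.05 and no conclusion is drawn from it.

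Other genes of the cycle and its entry points changed in both directions. Of 47 listed, 38 were measured, and 7 rose, 9 fell and 22 did not pass after glucosamine. That is 42.1% called, beside 25.8% of all probe sets, and the median difference was -0.03, beside 0.01 over all probe sets. With all 8 arrays sharing the spread, 2 rose and 3 fell. In the paired fit with the replicate number as a block, 7 rose and 11 fell: SDHA dropped out, and DLD (-0.22, 0.0217), IDH3B (-0.21, 0.0256) and PDK3 (0.20, 0.0495) passed. Leaving out control replicate 2 or glucosamine replicate 3 left 4 that rose, and 11 of the 16 called genes kept the call without each replicate in turn. The 5 that did not were SDHA, PDHB, PDPR, MMUT and ACLY.

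Among 13 other enzymes of the cycle or their cytosolic counterparts, IDH1 and SDHA rose, and IDH3G, SUCLG2, SDHC and MDH1 fell. IDH1 and MDH1 are cytosolic and stand outside the cycle of the matrix. IDH3G, a regulatory subunit of the same complex as IDH3A, fell by 0.44 (limma adjusted p = 0.00116). Succinate dehydrogenase, which is also complex II of the respiratory chain, was split. Its membrane anchor gene SDHC fell by 0.39 (limma adjusted p = 0.000891), and its flavoprotein gene SDHA rose by 0.17 (0.0461). SDHA was not called in the paired fit (0.0573) or without 5 of the 6 arrays left out singly (0.102 to 0.130). A second SDHC probe set gave -0.20 (adjusted p = 0.149), and a second SDHD probe set gave 0.17 (0.0461) where the one used gave 0.11 (0.325). Probe sets of such genes can capture RNA of near-identical copies, so SDHC and SDHD are uncertain.

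Pyruvate enters the matrix through a carrier and meets pyruvate dehydrogenase, which makes the acetyl-CoA that CS uses. Of 10 measured genes of this complex and its regulators, 2 rose and 3 fell. PDHA1, its catalytic alpha subunit, fell by 0.37 (limma adjusted p = 0.00141), and the kinases that switch the complex off, PDK1 and PDK2, fell by 0.63 (0.000492) and 0.34 (0.00546). PDHB, the beta subunit, rose by 0.24 (0.0137; 0.0610 without control replicate 2 and 0.0592 without glucosamine replicate 3). PDPR, a regulator of the activating phosphatase, rose by 0.19 (0.0285), and was not called without any 1 control replicate (0.0560 to 0.0987) or glucosamine replicate 3 (0.103). The carrier gene MPC2 rose by 0.34 (0.00291), and its partner MPC1 was at 0.12 (0.312).

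At the other entry points both directions occurred. GOT1, the cytosolic aspartate aminotransferase, rose by 0.25 (limma adjusted p = 0.00579), and the mitochondrial GOT2 was at -0.07 (0.400). The malic enzyme genes ME1, ME2 and ME3 were between -0.02 and 0.03, and none passed. On the propionyl-CoA route into succinyl-CoA, PCCA, a subunit of propionyl-CoA carboxylase, rose by 0.38 (0.00451). MMUT, the mutase that ends this route, fell by 0.34 (0.0134; 0.0529 without control replicate 2 and 0.0504 without control replicate 3). ACLY, which splits exported citrate into acetyl-CoA, fell by 0.22 (0.0193). ACLY was not called without control replicate 1 (0.0634) or 2 (0.0735), glucosamine replicate 3 (0.0611) or both replicate 1 arrays (0.0669).

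**Figure D4:**
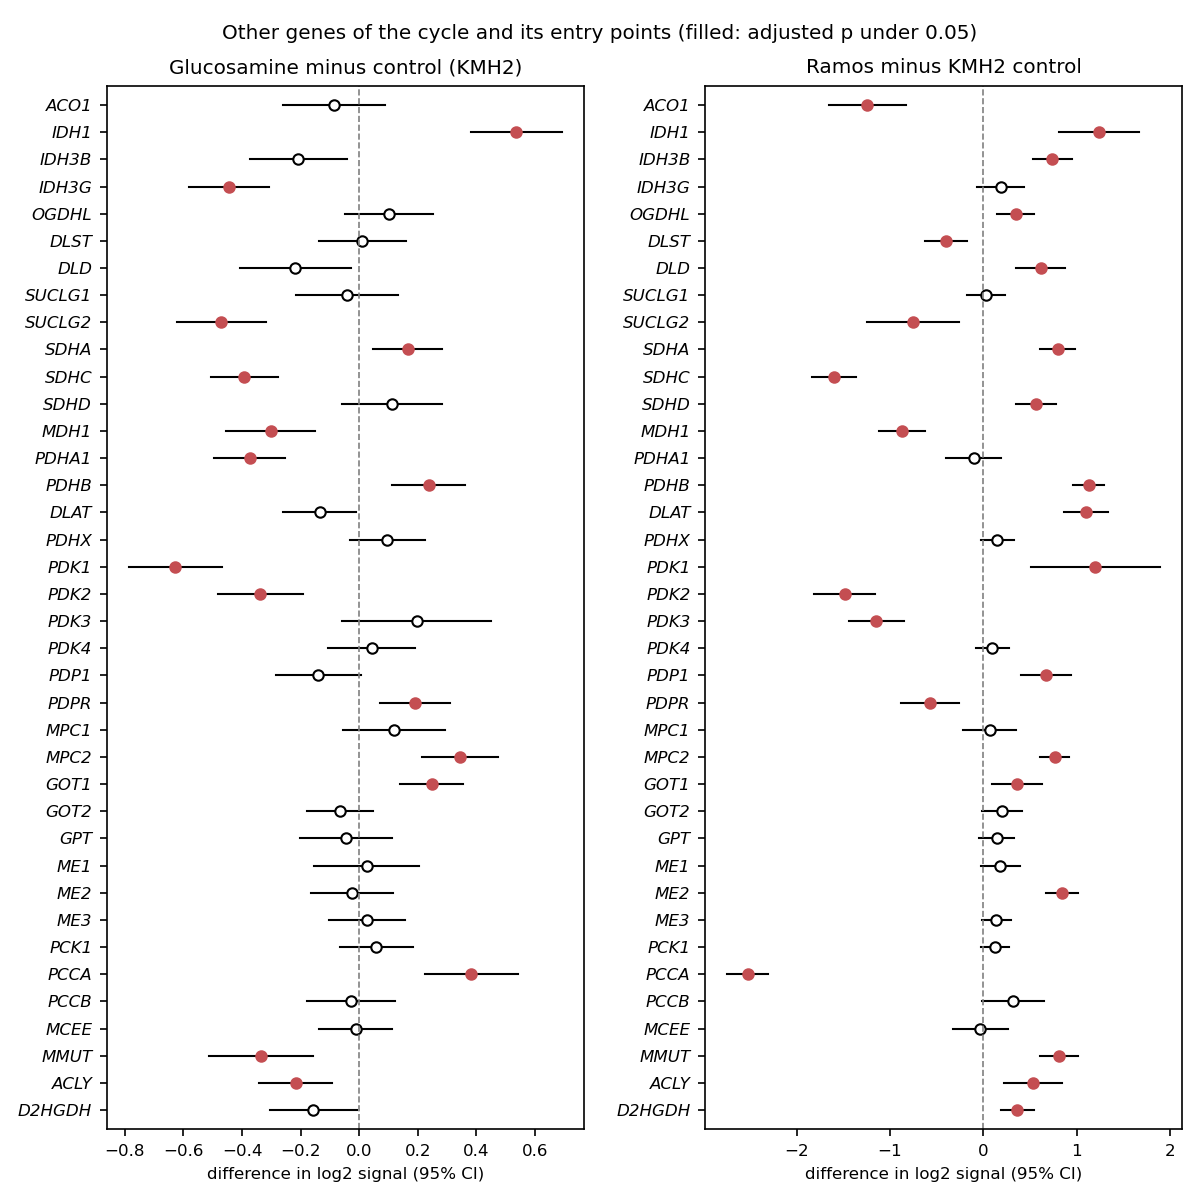
Difference in log2 signal (point) with its unadjusted 95% confidence interval (line) for 38 other genes of the cycle and its entry points, for glucosamine minus control in KMH2 (left) and Ramos minus KMH2 control (right, on a wider axis). Filled points passed the adjusted test: 7 higher and 9 lower on the left, 16 higher and 9 lower on the right. PDK1 has the lowest value on the left, and PCCA on the right.

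Between the lines, all 8 enzymes had higher signals in Ramos than in KMH2 control, and 5 passed the test: OGDH, SUCLA2, IDH2, PCK2 and MDH2. Both Ramos arrays lay above all KMH2 control arrays in each of the 8, as in 37.8% of all probe sets (64.1% did not overlap in either direction, 26.3% with Ramos lower). Of all probe sets, 43.8% were called (22.7% higher and 21.2% lower). The median difference of the 8 was 0.40 on the log2 scale, beside 0.06 over all probe sets. The Ramos comparison changed with the scaling chosen. With each array centred on the median of its probe sets with 1 symbol, the median difference over these became 0.20. Calls went from 4347 higher and 4061 lower to 8602 and 3322, and all 8 enzymes were called higher. Medians over the whole table differed little, at 5.62 to 5.66 in KMH2 control and 5.66 and 5.68 in Ramos. Centring on those was not run. This comparison shares its control arrays with the glucosamine comparison.

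OGDH had the widest difference. It was at 10.75 and 11.20 in Ramos and between 8.75 and 8.77 in KMH2 control, a 4.64-fold difference (2.21 ± 0.12 on the log2 scale, SE, n = 2 and 3, limma adjusted p = 1.82e-06). Only 4.82% of all probe sets differed more in size. It kept its call under all 15 alternatives, with values from 1.99 to 2.44. For each enzyme, the alternatives counted for Ramos include Ramos set against KMH2 after glucosamine, which is another reference group. Its partners in the 2-oxoglutarate dehydrogenase complex went separate ways, with DLD 0.61 higher in Ramos (limma adjusted p = 0.00237) and DLST 0.40 lower (-0.40, 0.0101). DLST was not called without both replicate 1 arrays (0.0572) or with array weights (0.0577).

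SUCLA2 was at 9.61 and 9.65 in Ramos, 1.60-fold above KMH2 control (0.67 ± 0.07, SE, limma adjusted p = 9.49e-05), and was called under all 15 alternatives. IDH2 was at 9.50 and 9.08 in Ramos, 1.48-fold above control (0.57 ± 0.12, SE, limma adjusted p = 0.00548). Without Ramos replicate 1 the IDH2 difference was 0.36. PCK2 was at 7.98 and 8.42 in Ramos, 1.49-fold above control (0.57 ± 0.12, SE, limma adjusted p = 0.00414), and its difference was 0.35 without Ramos replicate 2. IDH2 and PCK2 were also called under all 15. For OGDH, SUCLA2, IDH2, PCK2, MDH2 and PC, but not CS or IDH3A, both Ramos arrays lay above all 6 KMH2 arrays. The share of all probe sets that did so was not computed.

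MDH2 was at 11.99 and 12.01 in Ramos, 0.20 above control (limma adjusted p = 0.0260). It did not pass under 8 of 15 alternatives, over a range of 0.00168 to 0.183. Among them were leaving out control replicate 2 (0.0776), control replicate 3 (0.0774) or both replicate 1 arrays (0.0514), and blocking on the replicate number (0.0808). The block ties Ramos arrays to KMH2 arrays by number, a link the sources used here do not give. Without Ramos replicate 2 the MDH2 difference was 0.18. CS, at 11.53 and 11.60 in Ramos, did not pass (0.17, limma adjusted p = 0.0680). IDH3A, at 11.28 and 11.07 (0.14, adjusted p = 0.211), and PC, at 5.29 and 5.10 (0.24, 0.0697), did not pass either. With Ramos replicate 1 as the lone Ramos array, assumed to vary like the other groups, IDH3A (0.0385) and PC (0.0252) did pass.

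Ordered by group mean, IDH2 and PCK2 were lowest in KMH2 after glucosamine, intermediate in KMH2 control and highest in Ramos. The glucosamine step passed in the fit of the 6 KMH2 arrays but not in the 8-array fit that gives the Ramos step (IDH2 0.281, PCK2 0.107). CS was lowest in KMH2 control, and its glucosamine and Ramos levels (11.65 and 11.57) did not differ beyond their spread (-0.08, limma adjusted p = 0.343). OGDH and SUCLA2 were highest in Ramos, with the KMH2 groups not separated by the test. Set against KMH2 after glucosamine, Ramos was higher in OGDH, PCK2, IDH2, SUCLA2 and PC (limma adjusted p from 1.59e-06 to 0.0433), and not called in MDH2 (0.121) or IDH3A (0.415).

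The Ramos arrays differed most from each other in OGDH (replicate 2 minus replicate 1, 0.44), PCK2 (0.43) and IDH2 (-0.42). In SUCLA2 and MDH2 the gap was 0.04 and 0.02. Neither array is given a treatment here, and with 1 array on each side these gaps have no test.

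Of the 38 other genes, 16 were higher and 9 lower in Ramos than in KMH2 control and 13 did not pass. That is 65.8%, beside 43.8% of all probe sets. With arrays centred on the median of their probe sets with 1 symbol, 25 were higher and 9 lower. Of the 25 called, 22 kept the call without each replicate in turn, and OGDHL, SUCLG2 and GOT1 did not. Without both replicate 1 arrays, 13 were higher and 6 lower, and ACLY (0.0577), PDPR (0.0560), SUCLG2 (0.0983) and GOT1 (0.119) were among those that no longer passed. PCCA was at 4.27 and 4.03 in Ramos against 6.60 to 6.75 in control (-2.52, limma adjusted p = 1.89e-07). Its Ramos arrays lie under the array medians, so no fold is given. SDHC was 1.60 lower (-1.60, limma adjusted p = 4.55e-06), PDK2 1.48 lower (-1.48, 5.02e-05) and ACO1, the cytosolic aconitase, 1.24 lower (-1.24, 0.000588). On the other side IDH1 was higher by 1.23 (0.000764), PDHB by 1.13 (4.12e-06), DLAT, the core of pyruvate dehydrogenase, by 1.10 (4.10e-05) and ME2, the mitochondrial malic enzyme, by 0.84 (3.26e-05). PDK1 was higher by 1.20 (0.0120), with Ramos arrays at 10.49 and 9.21, and was not called without both replicate 1 arrays (0.0734). Differences between 0.34 and 0.81 were also called higher in SDHA (0.79), IDH3B (0.74), SDHD (0.56), OGDHL (0.34), MPC2 (0.76), PDP1 (0.67), MMUT (0.81), ACLY (0.53), D2HGDH (0.36) and GOT1 (0.36). PDK3 (-1.14), MDH1 (-0.87), SUCLG2 (-0.76) and PDPR (-0.57) were called lower. A second SUCLG2 probe set, of lower signal, gave -0.23 and was not called (limma adjusted p = 0.0776). Second probe sets of SDHC, SDHD and D2HGDH were called in the same direction as those used.

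Among themselves the 8 enzymes fell into close and distant profiles. The distance used was the root mean square difference between profiles of 8 log2 values, each centred on its mean. IDH3A and MDH2 were nearest (0.078), then CS and MDH2 (0.098), and CS and OGDH were farthest apart (0.964). Among all tested genes, those with the profile nearest to PCK2 were CDK19 (0.050) and NINJ2 (0.056). Nearest to CS were ATP8B3 and SLC39A8 (both 0.030), and nearest to IDH2 were NARS2 (0.052) and TOP1 (0.054). These distances are over 8 arrays of 3 groups that share a platform and scaling, and carry no test.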

How the data were processed

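Per the labels' protocols, biotin-labelled RNA of 1 sample was hybridised to each Affymetrix HuGene-1_1-st-v1 array strip. The deposited table gave log2 signals for 33297 probe sets on 8 arrays. How they were summarized, background-corrected and normalized is not given in the sources used here. A platform annotation of 2016 paired 19181 probe sets with 1 symbol (17958 genes), and these were tested. The probe set with the highest mean stood for a gene with several.

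Two-sided moderated tests were run with limma 3.58.1 under R 4.3.3, and p-values were adjusted by Benjamini-Hochberg over all probe sets tested (threshold 0.05). Glucosamine was fitted on the 6 KMH2 arrays, and Ramos minus KMH2 control on all 8 in 3 groups. The fits were tested on simulated data. The number of arrays limits the precision. Levels of different probe sets were set side by side in places but not tested against each other. For the 5 partner pairs, the change in the within-array difference after glucosamine was given an exact permutation test. Replicates of KMH2 are biological per the design text, and the sources say nothing of this for Ramos.

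The members, the lists and the rule for names were chosen with earlier results of these data known. Named were all members, the listed pathway genes past the threshold in either comparison, 6 ATF4 targets and the 2 nearest profiles of each member called after glucosamine. MPC1, GOT2, ME1, ME3 and PCK1 were added as partners after their values were seen. Of the listed pathway genes, 9 were not analysed here and are not reported. Same-numbered KMH2 arrays deviated together from their group means (correlations 0.46, 0.23 and 0.23), although control 2 with glucosamine 3 (0.25) and control 3 with glucosamine 2 (0.18) did so as well. By the rule that every same-numbered correlation exceed 0.1, a paired fit with the replicate number as a block was run, among the alternatives given in the closing section.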

Additional observations from a re-analysis of the deposited data

How the results depend on the processing

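Under the alternatives run, CS kept its rise after glucosamine in all 15. Of the enzymes lower after glucosamine (2 as reported), 1 remained with all probe sets of the table, with quantile normalization and without both replicate 1 arrays, 0 remained with all 8 arrays sharing the spread (1 of 8 was lower there at an unadjusted p under 0.05 in limma), and 1 to 2 remained without 1 replicate. Of the other pathway genes, 7 rose as reported, 2 with all 8 arrays sharing the spread and 4 to 8 without 1 replicate, and 9 fell as reported and 3 with all 8 arrays sharing the spread. With arrays centred on the median of their probe sets with 1 symbol, 8 enzymes (5 as reported) and 25 pathway genes (16 as reported) were higher in Ramos. The count of all calls after glucosamine was 4956 as reported and 2177 with all 8 arrays sharing the spread. The replicate block changed the call of MDH2 in Ramos (0.0808), SDHA after glucosamine (0.0573) and GOT1 in Ramos (0.0649). It changed no other call among enzymes and pathway genes that had passed, while DLD, IDH3B and PDK3 passed after glucosamine with it. For Ramos the block rests on shared array numbers alone, since the sources used here give no link to KMH2 replicates. Among pathway genes, signs turned under some alternative in 8 of 38 after glucosamine and 4 of 38 in Ramos, and 0 of these had been called. Among the enzymes, signs turned in values after glucosamine that had not passed. PC ran from -0.079 to 0.020 without 1 replicate, turning without control replicate 2 (0.010) or glucosamine replicate 2 (0.020). OGDH was at 0.0073 with array weights. Set against KMH2 after glucosamine, which is another comparison, Ramos was at -0.084 in CS. No enzyme had a second probe set, so that alternative was run for pathway genes alone. Without dim probe sets PC was not tested. The cause of these changes was not tested. Signals under the array medians limit PC, PCK1, OGDHL, ME1 and ME3, as well as CHAC1 in KMH2 and PCCA in Ramos.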
